A study of Mus musculus with 2 samples.

Results

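The network and basement membrane collagens analysed here were 10 genes, *Col4a1*, *Col4a2*, *Col4a3*, *Col4a4*, *Col4a5*, *Col8a1*, *Col8a2*, *Col10a1*, *Col15a1* and *Col18a1*, chosen by name from the 31253 genes listed for the series. Each was read from UMI counts (unique molecular identifiers, which mark single captured mRNA molecules) of periosteal cells. UMIs were summed over the cells of a type and given as CPM, the UMIs of a gene per 1000000 UMIs of that type. The cells came from the periosteum of femurs and tibias of 8-week-old mice and were sorted for the Prx1 lineage, which Prx1 Cre marks with the Ai9 fluorescent reporter. The control library was from Prx1 Cre; Ai9/+ mice. The other library, called Piezo1 fl/fl here, was from Prx1 Cre; Ai9/+; Piezo1 fl/fl mice, so both carried the Cre and the reporter. Piezo1 is a mechanically gated cation channel, and the floxed gene is a target of the Cre in cells where the Prx1 promoter has been active, chiefly limb mesenchyme. There was 1 library per genotype, and the sources used here do not say how many mice were pooled. No difference between genotypes therefore had a replicate check, and the intervals in parentheses are 95% intervals that cover counting error only. Where a pair of values is given without names, the control comes first.

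Collagens of these types do not form the striped fibrils of tendon and bone matrix. Type IV collagen is the sheet-like network of basement membranes, built from the Col4a1 and Col4a2 chains in most tissues and from the Col4a3, Col4a4 and Col4a5 chains in a few, such as the kidney glomerulus. Type VIII collagen (*Col8a1*, *Col8a2*) forms hexagonal lattices in matrices such as the basement layer of the corneal endothelium, and type X (*Col10a1*) forms a related network around hypertrophic chondrocytes. Types XV and XVIII (*Col15a1*, *Col18a1*) are proteoglycan collagens found where basement membranes meet the stroma, and the end fragment of type XVIII is endostatin. In and around periosteum, basement membranes surround the endothelium and mural cells of vessels, the perineurium of nerves and muscle fibres.

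The matrices held 6118 barcodes with 28030299 UMIs (control) and 7469 with 32337308 UMIs (Piezo1 fl/fl), and 50 barcodes occurred in both. After filtering, 4418 and 5084 cells were kept, with medians of 4812.5 and 4593.0 UMIs per cell. Cells were clustered in each library alone, without the 10 collagens and their partner genes, and clusters were named from marker genes. This gave 10 types named in both libraries. SSPC-1-like (806 and 1046 cells) and SSPC-2-like cells (745 and 394) are the periosteal stem and progenitor states of the study. The others were Gdf10 fibroblast-like (745 and 938), Pi16 fibroblast-like (856 and 647), tendon-like (214 and 555), mural-like (296 and 363), endothelial-like (172 and 142), lining-like (55 and 123, led by the joint lubricin *Prg4*), chondrocyte-like (20 and 27) and blood-like cells (416 and 523). Endothelial-like and blood-like cells lie outside the lineage that the sort was set for. Every listed marker of 9 of these types had UMIs in its type in both libraries, and 1 of the 12 blood markers was at 0 in each. The SSPC-1-like clusters scored higher on the tendon list than on their own in both libraries and were named from 8 of 8 detected SSPC-1 markers. In the control the SSPC-1 markers summed to 8904 CPM in SSPC-1-like cells, below the 15294 CPM of tendon-like cells. In the Piezo1 fl/fl library they summed to 7098 CPM in SSPC-1-like and 5177 CPM in tendon-like cells. Perineurial-like (32 cells) and mature osteoblast-like cells (61) were named in the control library alone, and a Piezo1 fl/fl cluster of 326 cells led by *Cyp2f2* stayed unnamed.

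The major type IV genes lie head to head on chromosome 8. On GRCm38 (GENCODE vM21), *Col4a1* (ENSMUSG00000031502) spans chr8:11198423-11312826 on the minus strand and *Col4a2* (ENSMUSG00000031503) chr8:11312805-11449287 on the plus strand, so the annotated 5′ ends overlap by 22 bases. *Col4a4* (ENSMUSG00000067158, chr1:82448423-82586849, minus strand) and *Col4a3* (ENSMUSG00000079465, chr1:82586921-82722059, plus strand) are also head to head, with 71 bases between their starts. *Col4a5* (ENSMUSG00000031274) spans chrX:141475385-141689234 on the plus strand. The promoter windows run from 250 bases before to 50 bases after a start and are from RefSeq (GRCm38.p6), which had windows for 9 of the 10 genes. They are shown for the pairs of chains that share a start region, for the type VIII pair, whose genes are apart but were both highest in SSPC-1-like cells, and for *Col10a1*, which was found in few cells. In the *Col4a2* window (chr8:11312555-11312854, plus strand) capitals mark the bases shared by both transcripts. In the *Col4a4* window (chr1:82586800-82587099, minus strand) they mark the bases from the *Col4a3* start to the *Col4a4* start. In the *Col8a1* (chr16:57754688-57754987, minus strand) and *Col8a2* (chr4:126286544-126286843, plus strand) windows they mark the GC box GGGCGG on either strand, and in the *Col10a1* window (chr10:34389731-34390030, plus strand) the TATA box TATAAA.
Col4a2: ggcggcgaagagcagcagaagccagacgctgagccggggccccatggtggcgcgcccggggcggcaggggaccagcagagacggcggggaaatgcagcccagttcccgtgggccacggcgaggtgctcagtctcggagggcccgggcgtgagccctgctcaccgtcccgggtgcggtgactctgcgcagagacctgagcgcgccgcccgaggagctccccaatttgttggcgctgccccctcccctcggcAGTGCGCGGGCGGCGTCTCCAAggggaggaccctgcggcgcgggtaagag
Col4a4: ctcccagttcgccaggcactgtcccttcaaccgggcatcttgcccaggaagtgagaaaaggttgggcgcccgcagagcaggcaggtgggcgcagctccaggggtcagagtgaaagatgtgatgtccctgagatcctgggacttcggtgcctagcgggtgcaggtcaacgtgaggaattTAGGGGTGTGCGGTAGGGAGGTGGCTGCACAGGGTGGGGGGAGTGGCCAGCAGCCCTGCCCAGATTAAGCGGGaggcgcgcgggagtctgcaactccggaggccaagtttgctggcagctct
Col8a1: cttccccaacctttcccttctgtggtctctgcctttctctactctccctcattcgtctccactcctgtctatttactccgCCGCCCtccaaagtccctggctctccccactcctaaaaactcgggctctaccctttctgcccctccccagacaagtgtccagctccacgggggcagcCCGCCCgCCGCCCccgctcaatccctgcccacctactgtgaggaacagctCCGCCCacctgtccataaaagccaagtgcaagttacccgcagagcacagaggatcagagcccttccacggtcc
Col8a2: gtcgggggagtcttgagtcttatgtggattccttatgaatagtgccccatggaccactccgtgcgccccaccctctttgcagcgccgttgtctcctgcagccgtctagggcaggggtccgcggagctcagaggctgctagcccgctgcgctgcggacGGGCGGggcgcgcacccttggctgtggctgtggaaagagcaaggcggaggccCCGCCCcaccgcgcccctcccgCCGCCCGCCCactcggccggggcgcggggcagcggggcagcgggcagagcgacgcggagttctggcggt
Col10a1: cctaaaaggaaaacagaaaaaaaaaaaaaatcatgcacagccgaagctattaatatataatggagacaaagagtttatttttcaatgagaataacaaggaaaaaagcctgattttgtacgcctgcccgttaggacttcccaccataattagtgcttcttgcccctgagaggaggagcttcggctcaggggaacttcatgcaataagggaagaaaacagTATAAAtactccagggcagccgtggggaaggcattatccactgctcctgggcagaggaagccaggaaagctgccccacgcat
GGGCGG was present on either strand in 35.7% of the 32851 windows of this length, TATAAA in 13.6% and the CCAAT box in 37.4%. The *Col4a2* window held CCAAT 32 bases before the start and 3 copies of GGGCGG, of which 1 lay among the bases shared with *Col4a1*. The *Col8a1* and *Col8a2* windows each held 4 copies of GGGCGG, on the other strand in all 4 copies of *Col8a1* and in 3 of *Col8a2*, where the last 2 overlap. The *Col10a1* window held TATAAA 32 bases before the start and neither other motif. These are letter matches, not binding sites.

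*Col8a1* (ENSMUSG00000068196) spans chr16:57624258-57754737 on the minus strand and *Col8a2* (ENSMUSG00000056174) chr4:126286793-126314330 on the plus strand. *Col10a1* (ENSMUSG00000039462) spans chr10:34389981-34397085 on the plus strand, *Col15a1* (ENSMUSG00000028339) chr4:47208161-47313167 on the plus strand and *Col18a1* (ENSMUSG00000001435) chr10:77052178-77166548 on the minus strand. Exons of *Col10a1* overlap those of *Nt5dc1* on the other strand, exons of *Col4a3* those of *C430014B12Rik*, exons of *Col15a1* those of *Gm12426*, and exons of *Col4a2* those of *Gm15419* as well as of *Col4a1*. Whether counting used strand is not given in the sources used here, so UMIs of these pairs may not be separable. Over the kept cells of the control library the members ranged from 8 UMIs in 3 cells (*Col10a1*) and 113 UMIs in 68 cells (*Col4a3*) to 33180 UMIs in 2053 cells (*Col8a1*). In the Piezo1 fl/fl library they ranged from 110 UMIs in 73 cells (*Col4a3*) to 21814 UMIs in 3441 cells (*Col4a1*).

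**Figure D1:**
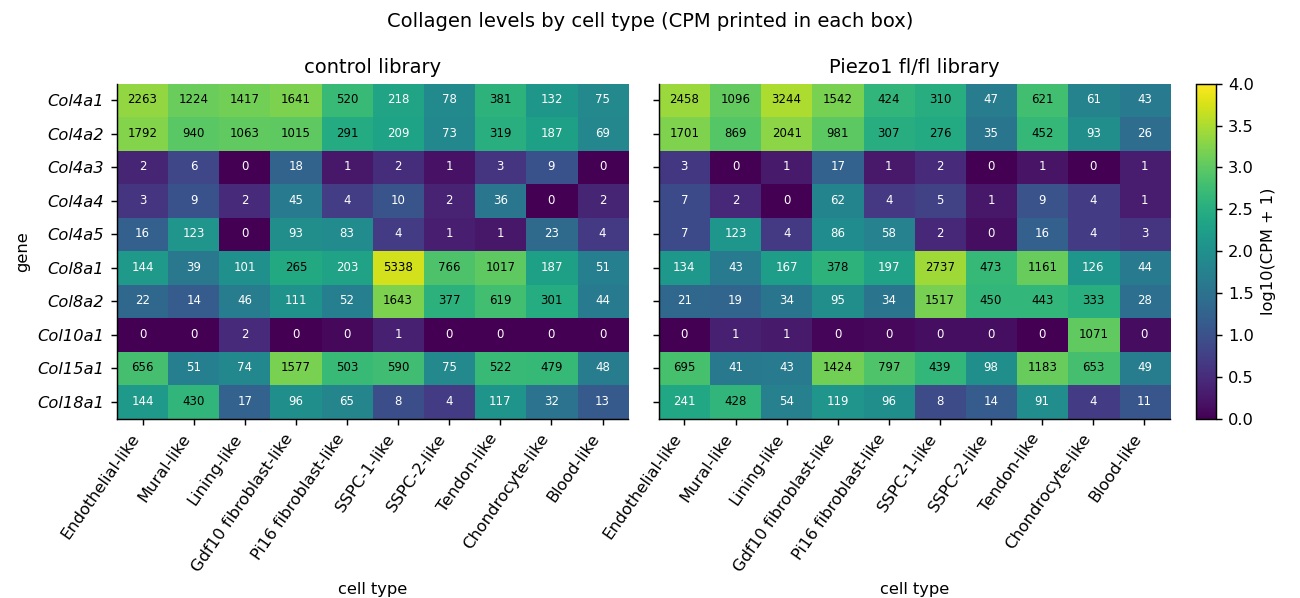
Levels of the 10 collagen genes (rows) in the 10 cell types named in both libraries (columns), with the control library on the left and the Piezo1 fl/fl library on the right; each box prints the CPM and its colour is log10(CPM + 1). *Col4a1* and *Col4a2* were highest in endothelial-like, lining-like, Gdf10 fibroblast-like and mural-like cells, *Col8a1* and *Col8a2* in SSPC-1-like cells, and *Col10a1* reached 1071 CPM in Piezo1 fl/fl chondrocyte-like cells.

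*Col4a1* and *Col4a2*, the chains of the common type IV network, were highest in vessel-wall cells, in lining-like cells and in Gdf10 fibroblast-like cells. *Col4a1* in endothelial-like cells was 2263 CPM (2148 to 2383) and 2458 CPM (2332 to 2589). In mural-like cells it was 1224 CPM (1165 to 1286) and 1096 CPM (1046 to 1148). Gdf10 fibroblast-like cells, which are stromal and not vascular, had 1641 CPM (1601 to 1681) and 1542 CPM (1509 to 1577), above the mural-like level in both libraries. The lining-like level was 1417 CPM (1312 to 1528) in control and 3244 CPM (3136 to 3355) in Piezo1 fl/fl cells, so the leading type differed. Endothelial-like cells led in the control, 1.38 times (1.30 to 1.46) above Gdf10 fibroblast-like cells. Lining-like cells led in the Piezo1 fl/fl library, 1.32 times (1.24 to 1.41) above endothelial-like cells. Further down, *Col4a1* was 520.2 and 424 CPM in Pi16 fibroblast-like, 381 and 621 CPM in tendon-like and 218 and 310.4 CPM in SSPC-1-like cells.

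At the lower end, *Col4a1* in SSPC-2-like cells was 78.4 CPM (71.0 to 86.3) and 46.7 CPM (38.7 to 55.8). Blood-like cells, not known as a source of type IV collagen, were at 75.2 CPM (63.3 to 88.6) and 42.7 CPM (35.3 to 51.3). A *Col4a1* UMI was found in 12.3% and 12.4% of blood-like cells, at median depths of 3765.5 and 4015.0 UMIs. By CPM the SSPC-2-like level was thus not above the blood-like level in either library. It was read as background by this rule alone, and low expression by the cells themselves was not tested. A *Col4a1* UMI was found in 226 of 745 and 80 of 394 SSPC-2-like cells, at median depths of 5970.0 and 5400.0 UMIs. These shares were higher than in blood-like cells, and the part of depth in this was not tested. The mature osteoblast-like level in the control, 28.9 CPM, was also not above it.

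*Col4a2* followed the same types. Its level was 1792 CPM (1689.6 to 1898) and 1701 CPM (1597 to 1811) in endothelial-like cells and 1063 CPM (973 to 1160.3) and 2041 CPM (1956 to 2129.5) in lining-like cells. It was 1015 CPM (984 to 1047) and 981 CPM (954 to 1008) in Gdf10 fibroblast-like and 940.5 CPM (889 to 995) and 869 CPM (824 to 915) in mural-like cells. In the control, the lining-like and Gdf10 fibroblast-like levels did not differ beyond counting error (ratio 1.05, 0.95 to 1.15). Both chains were found together in most cells of these types. Of endothelial-like cells with a *Col4a1* UMI, 96.3% and 91.3% also had a *Col4a2* UMI, and of Gdf10 fibroblast-like cells 92.5% and 91.7%. Among 9088 genes with at least 200 UMIs in each library, *Col4a2* had the pattern most like that of *Col4a1*, with Pearson r = 0.99 of log2(CPM + 1) over 20 levels (10 types in 2 libraries).

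The ratio of *Col4a1* to *Col4a2* UMIs was not the same in each type. In the control it was 1.79 (1.67 to 1.90) in Pi16 fibroblast-like and 1.62 (1.55 to 1.68) in Gdf10 fibroblast-like cells, 1.26 (1.17 to 1.37) in endothelial-like and 1.30 (1.21 to 1.40) in mural-like cells, and 1.04 (0.95 to 1.14) in SSPC-1-like cells. In the Piezo1 fl/fl library it was, in the same order, 1.38 (1.29 to 1.48), 1.57 (1.52 to 1.63), 1.44 (1.33 to 1.57), 1.26 (1.18 to 1.35) and 1.13 (1.04 to 1.21). Fibroblast-like cells had relatively more *Col4a1* than SSPC-1-like cells in both libraries. The counts are of tags at the 3′ end of each mRNA, so these are ratios of captured tags and not of protein chains.

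**Figure D2:**
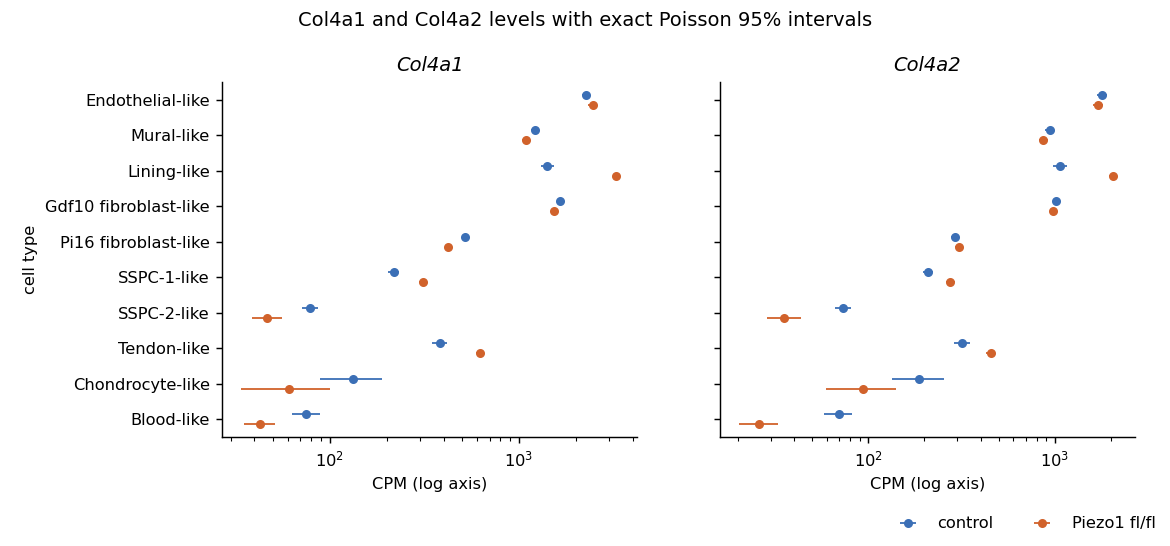
Levels of *Col4a1* (left) and *Col4a2* (right) in CPM on a log axis for 10 cell types; points are the sums over the cells of a type in the control (blue) and Piezo1 fl/fl (orange) library and bars are exact Poisson 95% intervals. Among the 4 types with the highest levels lining-like cells show the widest gap, 1417 against 3244 CPM of *Col4a1*, and SSPC-2-like cells sit at the blood-like level.

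The minor type IV chains had few UMIs and another distribution. *Col4a3*, *Col4a4* and *Col4a5* encode the trimer of the mature glomerular basement membrane. *Col4a5* was highest in mural-like cells, at 123 CPM (104 to 143) and 123 CPM (107 to 141), followed by Gdf10 fibroblast-like cells at 93.1 CPM (83.8 to 103) and 86.5 CPM (78.6 to 94.9). Pi16 fibroblast-like cells were next at 82.7 and 57.7 CPM. In blood-like cells it was 3.71 and 2.97 CPM, and in SSPC-1-like, SSPC-2-like and lining-like cells at most 4.01 CPM. *Col4a4* was highest in Gdf10 fibroblast-like cells, at 45.1 CPM (38.8 to 52.3) from 179 UMIs and 61.8 CPM (55.2 to 68.9) from 320 UMIs. Control tendon-like cells had 35.8 CPM of *Col4a4*, not separated from Gdf10 fibroblast-like cells by counting error (ratio 1.26, 0.91 to 1.79), and Piezo1 fl/fl tendon-like cells had 9.38 CPM. *Col4a3* was highest in the same Gdf10 fibroblast-like cells, at 17.7 CPM (13.8 to 22.3) and 16.8 CPM (13.5 to 20.7), from 70 and 87 UMIs. In the control its next type rested on 2 UMIs of chondrocyte-like cells and was not separated from it.

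Mural-like cells had *Col4a5* with little of its glomerular partners. In the Piezo1 fl/fl library they held 202 UMIs of *Col4a5* against 3 of *Col4a4* and 0 of *Col4a3*, and in the control 160 against 12 and 8. *Col4a6*, whose chain pairs with Col4a5 in smooth muscle basement membranes, had 25 and 17 UMIs in mural-like cells, or 19.2 and 10.4 CPM. It had 0 UMIs in both libraries in endothelial-like, lining-like, SSPC-1-like, SSPC-2-like, tendon-like and chondrocyte-like cells, and 7 and 39 UMIs in Gdf10 fibroblast-like cells.

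The signal of *Col4a3*, *Col4a4* and *Col4a5* was uneven within the Gdf10 fibroblast-like cells. When both libraries were clustered together, this type split into a large cluster led by *Cyp2f2* (748 and 882 cells) and a smaller cluster led by *Gdf10*, *Inmt*, *C7* and *Abcc9* (114 and 228 cells). In the smaller cluster *Col4a3* was 62.7 and 53.2 CPM, against 5.41 and 1.59 CPM in the large cluster. *Col4a4* was 123 and 182 CPM against 22.4 and 12.5 CPM, and *Col4a5* 213 and 188 CPM against 90.1 and 70.0 CPM. The ratios between the clusters were 11.6 (6.85 to 20.3) and 33.6 (16.2 to 80.4) for *Col4a3*, 5.49 (4.07 to 7.40) and 14.5 (11.03 to 19.4) for *Col4a4*, and 2.36 (1.95 to 2.84) and 2.68 (2.29 to 3.15) for *Col4a5*. The major chains went the other way. *Col4a1* was higher in the large cluster by a ratio of 1.42 (1.32 to 1.52) and 1.57 (1.48 to 1.66), and *Col4a2* by 1.24 (1.14 to 1.35) and 1.21 (1.13 to 1.29).

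At least 1 of the minor chains was found in 71 of the 114 control cells and 150 of the 228 Piezo1 fl/fl cells of the smaller cluster, and all of *Col4a3*, *Col4a4* and *Col4a5* in 10 and 28 cells. In the large cluster all of them were found together in 0 of 748 and 1 of 882 cells. Median depths were 5831.5 and 5885.0 UMIs per cell in the smaller and 4510.0 and 5029.0 in the large cluster. Over all Gdf10 fibroblast-like cells of the Piezo1 fl/fl library, 76.5% of the 51 cells with *Col4a3* also had *Col4a4*, against 9.81% of the cells without it. In the control it was 44.1% of 34 cells against 9.85%. Cells with a *Col4a3* UMI were deeper, with medians of 6128.0 and 6469.0 UMIs against 4525.0 and 4720.0, and the part of depth in these shares was not tested. In the control, the 32 perineurial-like cells had 60.7 CPM (29.1 to 112) of *Col4a3*, 134 CPM (83.7 to 202) of *Col4a4* and 78.9 CPM (42.0 to 135) of *Col4a5*, from 10, 22 and 13 UMIs.

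**Figure D3:**
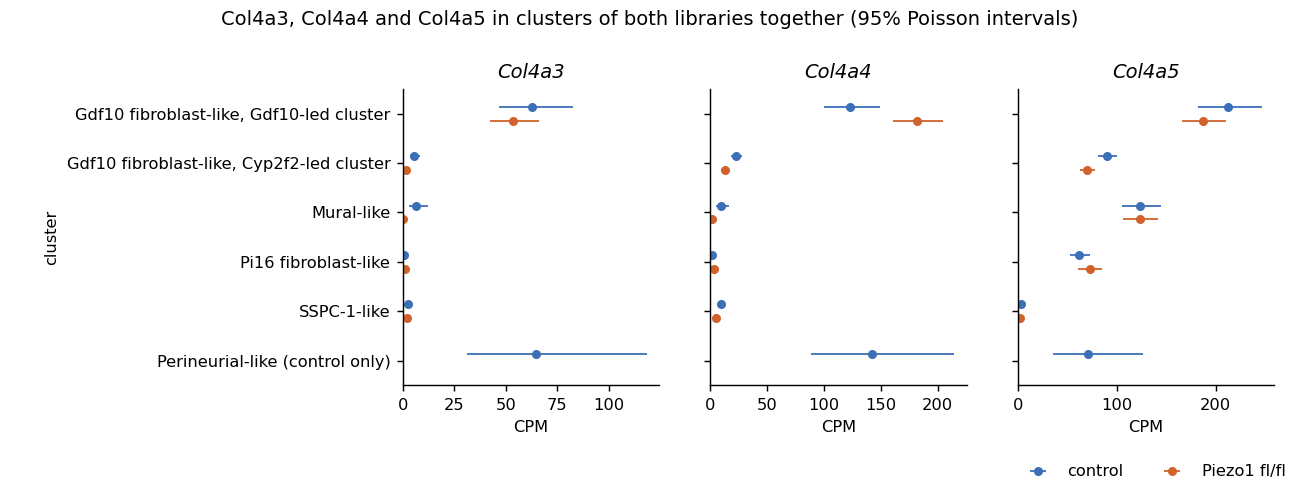
Levels of *Col4a3*, *Col4a4* and *Col4a5* in CPM for 6 clusters of both libraries clustered together, with exact Poisson 95% intervals; blue is the control and orange the Piezo1 fl/fl library. The Gdf10-led cluster had the highest levels of *Col4a5* and, with the control perineurial-like cells, of *Col4a3* and *Col4a4*, while mural-like cells had *Col4a5* with little of the other chains.

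Type VIII collagen had the clearest leading type of the set. SSPC-1-like cells had 5338 CPM (5273 to 5404) and 2737 CPM (2691 to 2784) of *Col8a1*, 5.25 times (4.96 to 5.56) and 2.36 times (2.27 to 2.45) above tendon-like cells, the next type. It was detected in 98.3% and 94.7% of SSPC-1-like cells. Tendon-like cells had 1017 and 1161 CPM and SSPC-2-like cells 766 and 473 CPM. The lowest levels, 39.1 and 43.3 CPM in mural-like cells, were not above those of blood-like cells, 51.4 and 43.8 CPM. *Col8a2* was also highest in SSPC-1-like cells, at 1643 CPM (1606 to 1679.7) and 1517 CPM (1483 to 1552). In the control this was 2.65 times (2.46 to 2.86) above tendon-like cells at 619 CPM, and in the Piezo1 fl/fl library 3.37 times (3.17 to 3.59) above SSPC-2-like cells at 449.5 CPM. In the latter library the SSPC-2-like and tendon-like levels of *Col8a2* did not differ beyond counting error (ratio 1.01, 0.94 to 1.10).

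The type VIII chains separated in some other types. Chondrocyte-like cells had 301 and 333 CPM of *Col8a2* and 187 and 126 CPM of *Col8a1*. Endothelial-like cells had 144 and 134 CPM of *Col8a1* but 21.9 and 20.7 CPM of *Col8a2*, which was not above the blood-like level of 44.5 and 28.2 CPM. Within SSPC-1-like cells, 96.97% of control and 96.7% of Piezo1 fl/fl cells with *Col8a1* also had *Col8a2*. The ratio of *Col8a1* to *Col8a2* UMIs there was 3.25 (3.17 to 3.33) in control and 1.80 (1.75 to 1.86) in Piezo1 fl/fl cells. Control perineurial-like cells had 692 CPM (571 to 831) of *Col8a2* and 534 CPM (428 to 658) of *Col8a1*.

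*Col10a1*, the collagen of hypertrophic cartilage, had nearly all of its UMIs in 8 cells. In the Piezo1 fl/fl library the 27 chondrocyte-like cells held 264 of its 274 UMIs, from 8 cells with 192, 41, 15, 6, 5, 3, 1 and 1 UMIs. The first of these cells had 3070 UMIs in all and so 62541 CPM of *Col10a1*. In the control, 0 UMIs were found in 20 chondrocyte-like cells, which allows a share of cells with a UMI of up to 15%, and the 8 UMIs of the library lay in other types. Against the control limit of 3 UMIs in the type (13.7 CPM), the Piezo1 fl/fl level of 1071 CPM was 78.3 times as high, and without the first cell (296 CPM) 21.6 times as high. With the counting error of both libraries, the exact 95% interval of the ratio started at 63.2-fold, and without the first cell at 17.1-fold. These intervals take each UMI as independent. They do not cover the sampling of cells, with UMIs in 8 of 27 against 0 of 20 cells. Markers of another lineage were carried by 14 of the 20 control and 22 of the 27 Piezo1 fl/fl cells. Other cartilage and bone genes of the chondrocyte-like cells differed as well. *Col2a1*, the main cartilage collagen, was 38282 and 7065 CPM, and *Acan*, the cartilage proteoglycan aggrecan, 4097 and 3526 CPM. The bone matrix genes *Ibsp* and *Spp1* were 8823 and 21726 CPM and 1369 and 20476 CPM, and *Ihh*, a prehypertrophic signal, had 0 and 10 UMIs. *Prg4* was 14152 and 4626 CPM. The part of these differences in that of *Col10a1* was not tested.

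*Col15a1* was highest in Gdf10 fibroblast-like cells and *Col18a1* in mural-like cells. *Col15a1* was 1577 CPM (1538 to 1617) and 1424 CPM (1391 to 1457) in Gdf10 fibroblast-like cells. In the control this was 2.41 times (2.18 to 2.66) above endothelial-like cells (656 CPM), and in the Piezo1 fl/fl library 1.20 times (1.16 to 1.25) above tendon-like cells (1183 CPM). Endothelial-like cells had 695 CPM in the latter library. Mural-like cells had 51.4 and 40.9 CPM, not above blood-like cells (47.7 and 49.4 CPM). Mature osteoblast-like cells of the control had 447 CPM (393 to 506) of *Col15a1*, and SSPC-2-like cells of the same library 75.4 CPM (68.1 to 83.1).

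*Col18a1* was found in both cell types of the vessel wall. Mural-like cells had 430.3 CPM (395 to 467) and 428 CPM (397 to 461), 3.00 times (2.4 to 3.78) and 1.77 times (1.48 to 2.14) above endothelial-like cells at 144 and 241 CPM. It was detected in 68.2% and 66.1% of mural-like cells and 3.61% and 3.82% of blood-like cells, at median depths of 3745.0 and 3948.0 UMIs in the mural-like cells. Control perineurial-like cells were at 552 CPM (445 to 678). SSPC-1-like cells, at 8.02 and 7.56 CPM, were not above blood-like cells (12.7 and 10.8 CPM). Mural-like cells thus had *Col18a1* without *Col15a1* above background, and endothelial-like cells had both.

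**Figure D4:**
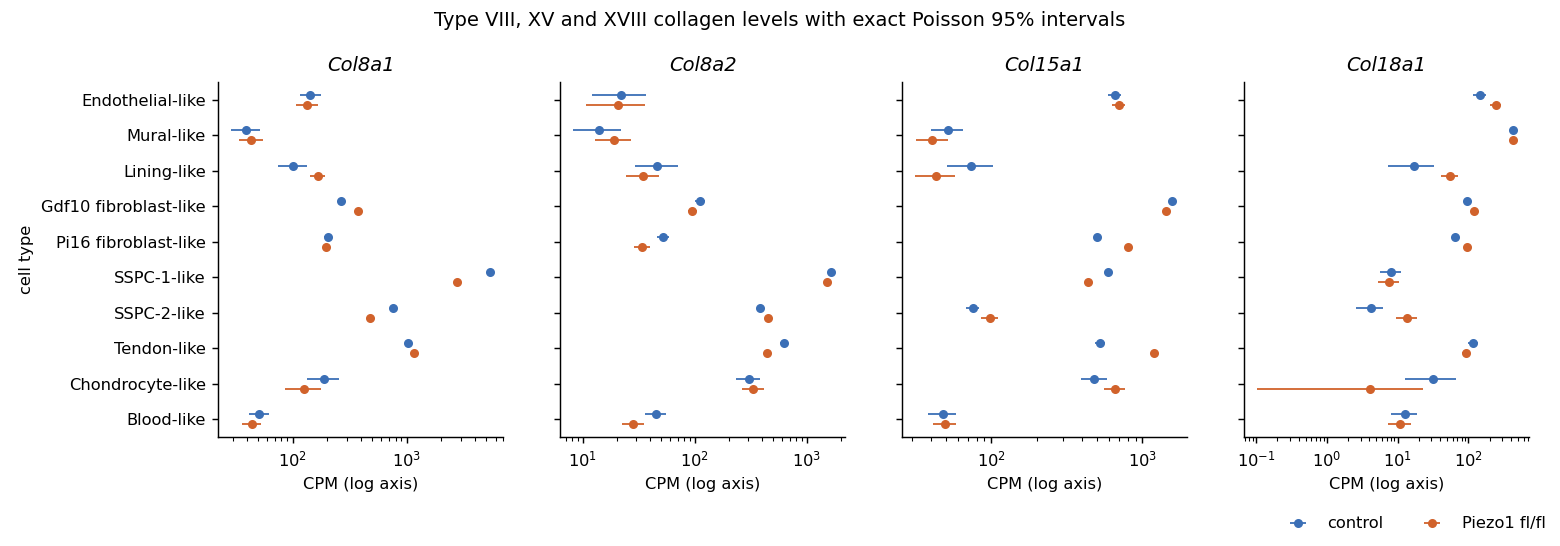
Levels of *Col8a1*, *Col8a2*, *Col15a1* and *Col18a1* in CPM on a log axis for the 10 cell types, with exact Poisson 95% intervals; blue is the control and orange the Piezo1 fl/fl library. SSPC-1-like cells led both type VIII genes, Gdf10 fibroblast-like cells led *Col15a1* and mural-like cells led *Col18a1* in each library.

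Of the 9 members with enough UMIs, 2 (*Col8a1* and *Col8a2*) had the same highest type in both libraries and stood at least 2-fold above the next type in each. Over all genes the share was 19.3%, so the count is near the background, and most of these collagens were spread over several types. *Col4a3*, *Col4a4*, *Col4a5*, *Col15a1* and *Col18a1* had the same highest type in both libraries without a 2-fold gap in each, and *Col4a1* and *Col4a2* changed from endothelial-like to lining-like cells.

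The genes with patterns most like each member over the 20 levels are given as descriptions. The levels of a library share its depth and its free RNA, and types are few, so r is high for many genes. Apart from each other, *Col4a1* was most like *Itih5* and *Rhoj* (r = 0.88 and 0.87) and *Col4a2* most like *Tns2* and *Ebf3* (r = 0.87 and 0.86). *Col4a4* was most like *Inmt* and *Cygb* (r = 0.83 and 0.79), and *Col4a5* most like *Adamts15*, *Opcml* and *Daam1* (r = 0.91, 0.82 and 0.81). *Col8a1* was most like *Pcgf2*, *Itgbl1* and *Ptpru* (r = 0.92, 0.88 and 0.88), and *Col8a2* most like *Rab15*, *Tenm3* and *Olfml3* (r = 0.96, 0.94 and 0.94). *Col15a1* was most like *Ace*, *Bmp4* and *Lpar4* (r = 0.90, 0.90 and 0.86), and *Col18a1* most like *Cav1*, *Cavin1* and *Acyp2* (r = 0.88, 0.87 and 0.86). Of these genes *Inmt*, *Cygb*, *Ebf3* and *Itgbl1* are markers that were used to name types. *Cav1* and *Cavin1* encode parts of caveolae, the membrane pits that are abundant in vessel walls. No other member was among the nearest 3 genes of any member.

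The 30 partner genes of basement membranes (laminins, nidogens, perlecan, agrin, receptors and others) were highest in different types from one another. Genes are named that had at least 100 UMIs in a type and stood furthest above the median of the other types. In endothelial-like cells these were *Tinagl1*, a secreted basement membrane protein (1878 and 1748 CPM), and the integrin subunits *Itga6* (724 and 527 CPM) and *Itga1* (741 and 546 CPM). In mural-like cells they were *Tinagl1* (1501 and 1560.1 CPM), the laminin chain *Lama5* (160.3 and 138 CPM) and *Itga1* (509 and 576 CPM). In Gdf10 fibroblast-like cells they were *Lama2* (340.2 and 210 CPM), the laminin chain *Lamb1* (309 and 249 CPM) and *Nid1* (2159.6 and 1997 CPM), a nidogen that links laminin to type IV collagen. In lining-like cells *Itga6*, a laminin receptor subunit, was 576 and 861 CPM, 47.0 and 102 times the median of the other types. It was followed there by the collagen receptor *Ddr2* (485 and 534 CPM) and dystroglycan, *Dag1* (446 and 480 CPM). In SSPC-1-like cells *Lama3* (44.3 and 25.3 CPM), *Smoc1* (40.1 and 24.9 CPM) and *Itga1* (149.6 and 164 CPM) stood out, and in chondrocyte-like cells *Sparc*, a collagen-binding glycoprotein (58634 and 77452 CPM). A gene named for a type by this median rule need not be highest there. In the control, *Nid1* and *Ddr2* were highest in Pi16 fibroblast-like and *Dag1* in mural-like cells. *Itga1*, *Itga6* and *Tinagl1* were highest in endothelial-like cells of that library. Among the partner genes reported here, *Pxdn* met the 2-fold rule in endothelial-like cells and *Itga2* in tendon-like cells.

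The comparison of the genotypes addressed whether these collagens differed when *Piezo1* was floxed in the Prx1 lineage. *Piezo1* itself had 1 to 33 UMIs per type and library. It was 6.23 and 1.56 CPM in SSPC-2-like cells (33 and 4 UMIs), 2.74 and 1.02 CPM in SSPC-1-like cells (13 and 5 UMIs) and 28.1 and 17.2 CPM in endothelial-like cells (18 and 10 UMIs). The sources used here do not name the floxed exons, and tags from the 3′ end may lie outside them, so these counts do not check the deletion. Of 71 pairs of a member and a type with at least 20 UMIs over both libraries, 25 (35.2%) were past 1.5-fold, against 21.5% of such pairs over all genes. Of these, 11 were higher in the Piezo1 fl/fl library (background 9.86%) and 14 lower (background 11.7%), and the counting interval left out no difference in 24. The ratio of *Col10a1* in chondrocyte-like cells has no upper value, since the control had 0 UMIs there, and with both libraries clustered together the cells held 0 and 263 UMIs. Of the other 24 pairs 5, *Col4a1* in lining-like, *Col4a5* and *Col8a1* in SSPC-1-like, *Col18a1* in SSPC-2-like and *Col4a4* in tendon-like cells, stayed past 1.5-fold under every alternative setting that gave a value. Among these, *Col4a5* in SSPC-1-like and *Col18a1* in SSPC-2-like cells were not above the blood-like level in either library. Elsewhere in the 25, the same held for *Col4a1* and *Col4a2* in SSPC-2-like and *Col8a2* in Pi16 fibroblast-like cells. *Col4a1*, *Col4a2* and *Col8a2* in blood-like cells, also in the 25, are ratios of the background level itself. Neither the 35.2% nor the 21.5% was limited to levels above those of blood-like cells. The direction changed in 10 pairs under at least 1 setting.

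In Gdf10 fibroblast-like cells, where much of the type IV signal lay, 0 of 9 members were higher (background 5.55%) and 0 lower (background 9.45%), where 15% of all genes were past 1.5-fold. In mural-like cells 0 of 7 were higher (background 6.38%) and 0 lower (background 9.45%), where 15.8% of all genes were past it. The median log2 ratio of the members (Piezo1 fl/fl over control) was -0.07 and -0.01 in these types, against -0.04 in both over all genes. In Gdf10 fibroblast-like cells the range over the alternative settings was -0.46 to -0.02 for *Col4a1* but -0.39 to 3.02 for *Col4a4*. It was -0.73 to 2.68 for *Col4a3* and -2.16 to 0.96 for *Col8a1*. At resolution 0.2 that type held 1604 and 231 cells. In mural-like cells the range was -0.37 to -0.10 for *Col4a1* and -1.37 to 0.61 for *Col15a1*. In endothelial-like cells 1 of 6 members was higher (background 12.1%) and 0 lower (background 12.1%). *Col4a1* had a log2 ratio of 0.12 (0.01 to 0.23) and *Col4a2* of -0.07 (-0.20 to 0.05). The member that was higher was *Col18a1*, at 144 CPM (116 to 176) and 241 CPM (203 to 285), a log2 ratio of 0.75 (0.36 to 1.14). The mural marker list in the same endothelial-like cells summed to 1951 and 5557 CPM, and without cells that carried markers of another lineage the log2 ratio of *Col18a1* was 0.36.

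Lining-like cells had the widest gap in *Col4a1* and *Col4a2* among the 4 types with the highest levels. *Col4a1* was 1417 CPM (1312 to 1528) from 674 UMIs and 3244 CPM (3136 to 3355) from 3400 UMIs, a log2 ratio of 1.20 (1.08 to 1.32), with a range of 0.97 to 1.23 over the alternative settings. *Col4a2* had a log2 ratio of 0.94 (0.80 to 1.08) with a range of 0.55 to 1.05. The difference in *Col4a1* was spread over cells. The median cell had 1012 CPM (quartiles 227 and 2048) in the control and 2625 CPM (quartiles 1519.6 and 4928) in the Piezo1 fl/fl library, so the quartile ranges overlap. *Col8a1* (101 and 167 CPM, log2 ratio 0.73) and *Col18a1* (16.8 and 54.4 CPM, 1.69) were also higher, and *Col15a1* (73.6 and 42.9 CPM, -0.78) was lower. That made 4 of 6 members higher (background 22.2%) and 1 lower (background 8.03%), in a type where 30.2% of all genes were past 1.5-fold. The members' median log2 ratio was 0.83 against 0.18 over all genes.

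The lining markers differed as well, and the cells were few. *Prg4* was 135144 and 43589.9 CPM in 55 control and 123 Piezo1 fl/fl cells, and *Htra4*, another lining marker, 5759 and 2598 CPM. With *Prg4* left out of the total, the log2 ratios of *Col4a1* and *Col4a2* were 1.05 and 0.80. The mural markers in lining-like cells summed to 1597 and 638 CPM, and the blood markers to 69.4 and 475 CPM. Without cells that carried markers of another lineage, which left out 41 of 55 and 91 of 123 cells, the log2 ratio was 0.97 for *Col4a1*, 0.55 for *Col4a2* and 0.02 for *Col18a1*.

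In SSPC-1-like cells the clearest difference was in *Col8a1*, at 5338 CPM (5273 to 5404) and 2737 CPM (2691 to 2784). The log2 ratio was -0.96 (-0.99 to -0.93), with a range of -1.10 to -0.93 over 13 alternative settings. The median cell had 3672 CPM (quartiles 1789 and 7234) and 1976 CPM (quartiles 963 and 3519), so that here too the quartile ranges overlap. *Col8a2*, the partner chain, had a log2 ratio of -0.12 (-0.16 to -0.07) in the same cells. The SSPC-1 markers in this type summed to 8904 and 7098 CPM and the tendon markers to 16481 and 19051 CPM, and the median depth was 5259.0 and 3936.5 UMIs per cell. At 2500 UMIs per cell the log2 ratio of *Col8a1* was -0.95. Of 9 members 0 were higher (background 6.53%) and 3 lower (background 11.6%). The other 2 were *Col4a4* (10.1 and 4.90 CPM, log2 ratio -1.05 (-1.82 to -0.31)) and *Col4a5* (4.01 and 1.84 CPM, -1.12 (-2.45 to 0.09)), both at low counts. The *Col4a5* level was not above that of blood-like cells (3.71 and 2.97 CPM) in either library.

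In tendon-like cells 3 of 8 members were higher (background 15.5%) and 1 lower (background 13.5%). *Col15a1* was 522 CPM (483 to 564) and 1183 CPM (1145 to 1222), a log2 ratio of 1.18 (1.06 to 1.30) with a range of 0.30 to 1.45. *Col4a1* was 381 and 621 CPM, a log2 ratio of 0.70 that was -0.095 at clustering resolution 0.2. *Col4a4* was 35.8 and 9.38 CPM from 45 and 29 UMIs, a log2 ratio of -1.93 (-2.66 to -1.23) with a range of -2.67 to -1.52. *Col4a5* had 1 and 49 UMIs, but with both libraries clustered together its log2 ratio was -0.076. The tendon markers in this type summed to 51067 and 27116 CPM and the SSPC-1 markers to 15294 and 5177 CPM, so that both lists were lower in the Piezo1 fl/fl library, and the part of this in the differences was not tested. With both libraries clustered together, the type held 180 and 227 cells in place of 214 and 555, and 288 and 771 cells stayed unnamed. In that setting the log2 ratio was 0.79 for *Col15a1* and 0.43 for *Col4a1*.

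SSPC-2-like cells had 1 of 6 members higher (background 9.07%) and 3 lower (background 8.92%). *Col8a1* was 766 and 473 CPM (log2 ratio -0.70) and reached 0.59 with cells of 500 to 6000 genes. *Col4a1* and *Col4a2*, the others that were lower, were at the blood-like level and reached 0.52 and 0.35 in the same setting. *Col18a1* was 4.16 and 13.6 CPM from 22 and 35 UMIs, a log2 ratio of 1.71 (0.90 to 2.55), and neither level was above that of blood-like cells. In Pi16 fibroblast-like cells 1 of 8 members was higher (background 6.1%) and 1 lower (background 11.9%). *Col15a1* was 503 CPM (483 to 523) and 797 CPM (771 to 823) there, a log2 ratio of 0.66 with a range of 0.29 to 1.90, and *Col8a2* was 51.6 and 34.0 CPM, a log2 ratio of -0.60 with a range of -0.92 to 0.76 that includes both directions. In chondrocyte-like cells 1 of 6 members was higher (background 15.2%), which was *Col10a1*, and 2 lower (background 32.4%), in a type where 47.6% of all genes were past 1.5-fold. The lower members were *Col4a1* and *Col4a2*, whose log2 ratios of -1.12 and -1.003 became 1.44 and 0.49 with each cell named by its marker UMIs. In blood-like cells 0 of 6 were higher (background 8.81%) and 3 lower (background 12.9%). These were *Col4a1* (75.2 and 42.7 CPM), *Col4a2* (69.4 and 26.0 CPM) and *Col8a2* (44.5 and 28.2 CPM). With doublets kept, the log2 ratios of *Col4a1* and *Col4a2* in blood-like cells were 0.57 and 0.32 in place of -0.82 and -1.42. The intervals of *Col8a1*, *Col15a1* and *Col18a1* in blood-like cells included no difference.

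**Figure D5:**
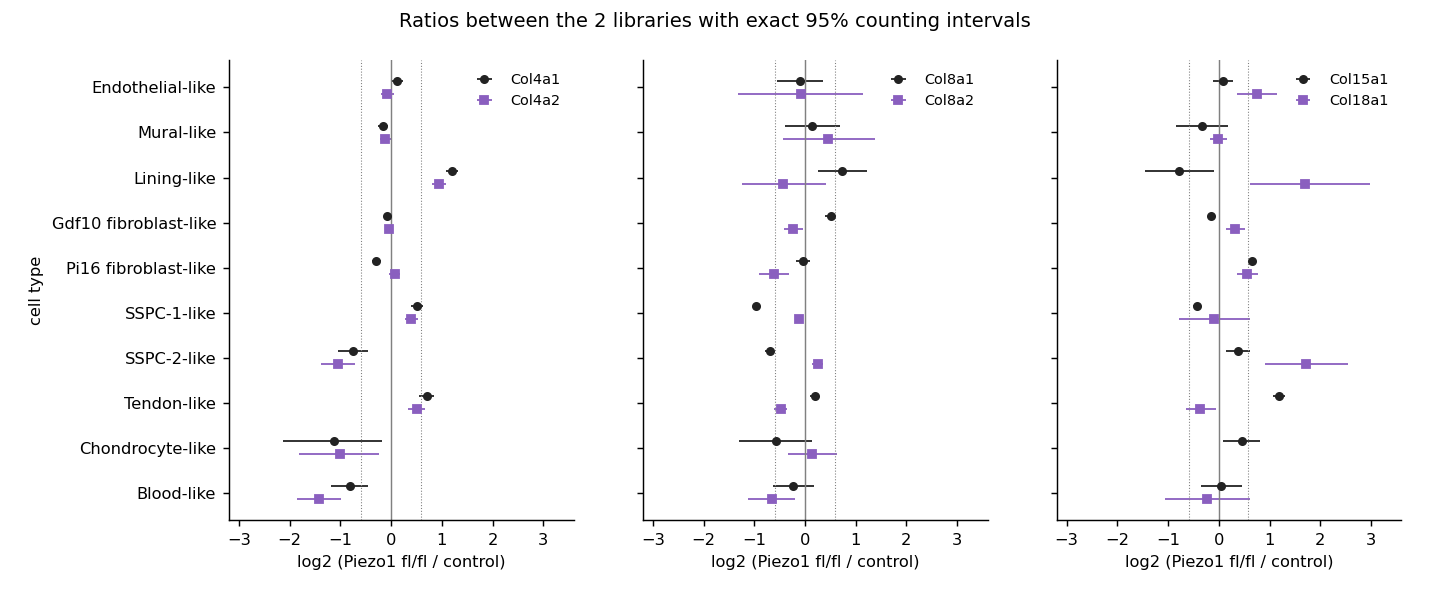
Log2 ratios of the Piezo1 fl/fl over the control library for 6 collagen genes in the 10 cell types; bars are exact 95% counting intervals, the grey line is no difference and the dotted lines are 1.5-fold. *Col4a1* and *Col4a2* lie above the line in lining-like cells and, at resolution 0.4, lower than it in SSPC-2-like, chondrocyte-like and blood-like cells, *Col8a1* lies at -0.96 in SSPC-1-like cells, and *Col15a1* at 1.18 in tendon-like cells.

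Among the partner genes, 197 pairs had enough UMIs and 56 were past 1.5-fold, to be read against the same 21.5% over all genes. In lining-like cells 5 of 18 were higher (background 22.2%) and 1 lower (background 8.03%). Those with at least 100 UMIs were peroxidasin, *Pxdn*, which crosslinks type IV collagen (39.9 and 95.4 CPM, log2 ratio 1.26), and the laminin chains *Lamc1* (189 and 336 CPM, 0.83) and *Lamb1* (103 and 182 CPM, 0.82). In tendon-like cells 7 of 22 were higher (background 15.5%) and 4 lower (background 13.5%). *Lama4* (38.1 and 136 CPM, 1.84), *Lamb1* (23.8 and 84.8 CPM, 1.83) and *Lamc1* (354 and 594 CPM, 0.75), chains that can form 1 laminin trimer, were higher. The collagen-binding integrin subunits *Itga1* (226 and 83.1 CPM, -1.44) and *Itga2* (167 and 77.0 CPM, -1.12) and *Lama2* (192 and 126 CPM, -0.60) were lower. These tendon-like values are for the 214 and 555 cells named with each library clustered alone. In SSPC-1-like cells 1 of 23 was higher (background 6.53%), *Lama4* (70.3 and 109 CPM, 0.64), and 5 lower (background 11.6%). Among these were *Adgrg6*, a receptor that binds type IV collagen (25.7 and 14.1 CPM, -0.87), *Lama3* (44.3 and 25.3 CPM, -0.81) and *Smoc1* (40.1 and 24.9 CPM, -0.69).

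In SSPC-2-like cells 5 of 21 partner genes were higher (background 9.07%), such as *Lamb1* (50.4 and 112 CPM, 1.15) and agrin, *Agrn* (11.3 and 17.9 CPM, 0.66), and 2 lower (background 8.92%), of which *Lama2* was 36.6 and 20.2 CPM (-0.86). *Lama2* was lower in Gdf10 fibroblast-like cells too (340.2 and 210 CPM, -0.70), where 3 of 23 were higher (background 5.55%) and 2 lower (background 9.45%). In Pi16 fibroblast-like cells 0 of 22 were higher (background 6.1%) and 4 lower (background 11.9%), among them *Lama2* (165 and 104 CPM, -0.67) and *Itga1* (20.1 and 7.77 CPM, -1.37). In mural-like cells 0 of 20 were higher (background 6.38%) and 4 lower (background 9.45%), of which *Adgrg6* had at least 100 UMIs (173 and 96.97 CPM, -0.84). In endothelial-like cells 2 of 21 were higher (background 12.1%) and 0 lower (background 12.1%). In blood-like cells 0 of 18 were higher (background 8.81%) and 6 lower (background 12.9%). In chondrocyte-like cells 0 of 9 were higher (background 15.2%) and 5 lower (background 32.4%).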

How the data were processed

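Periosteal cells of 1 control and 1 Piezo1 fl/fl library were profiled by 3′ whole-transcriptome BD Rhapsody sequencing. The authors deposited whole-number UMI counts per gene and barcode, not normalized, and per the labels fastp, UMI-tools, STAR and Seurat 4.0.3 were used. The roles and other versions of these tools, the genome build, the annotation and whether counting used strand are not given in the sources used here. Of the 31253 gene IDs, 31107 were found in GENCODE vM21 (GRCm38). Per the methods, cells had been frozen and thawed before capture, and the last 2 of 3 digestions were collected.

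The cells retained had 1000 to 5000 genes and a mitochondrial share of UMIs under 25%. The work used R 4.3.3, Seurat 5.3.0, Python 3.11.15, scanpy 1.11.5, numpy 2.4.6 and scipy 1.17.1. Scrublet calls on cells with at least 500 genes (46 of 5551, or 0.829%, and 67 of 6784, or 0.988%) were removed. Each library was clustered alone on 20 of 30 principal components at resolution 0.4, from 2000 variable genes of which the members and partner genes were left out (18 and 17). A cluster was named after the class with the highest marker score, with thresholds set after clusters were seen, and a type needed 20 cells. UMIs were summed per type, with exact Poisson, exact conditional and Clopper-Pearson 95% intervals. They cover counting error only, and amplification is removed only as far as UMIs do. With 1 library per genotype no test was possible. For a gene at 0 the limit was 3 UMIs. Pairs with at least 20 UMIs over both libraries were compared and called past 1.5-fold. The level in blood-like cells was read as background, and how much of it is free RNA was not tested. Their 142 and 115 UMIs of *Col4a1* lay in 51 of 416 and 65 of 523 cells. Shares were also computed on cells thinned to 2500 UMIs. Named genes were all members, the 3 nearest genes by r for members with at least 200 UMIs in each library, the 3 leading partner genes of a type with at least 100 UMIs there, and at most 3 partner genes past 1.5-fold per direction and type with at least 100 UMIs. Some genes that this rule names are not reported here. The members and lists were chosen with earlier results of these data known. Alternatives were other limits on genes and mitochondrial UMIs, doublets kept, resolutions 0.2 and 0.8, both libraries clustered together, naming each cell by its marker UMIs, other totals, means over cells, thinned cells, other UMI minimums and other folds. The scripts were tested on simulated data.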

Additional observations from a re-analysis of the deposited data

Results flagged for a closer look

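The log2 ratio of Piezo1 fl/fl over control went opposite ways in different cell types for 4 of the collagen genes, past 1.5-fold in each direction with counting intervals that left out 0. These differences between types were not tested, since each ratio rests on 1 library per genotype. *Col4a1* was at 1.20 in lining-like and 0.70 in tendon-like cells, and at -0.82 in blood-like, -1.12 in chondrocyte-like and -0.75 in SSPC-2-like cells. *Col4a2* was at 0.94 in lining-like cells, and at -1.42 in blood-like, -1.003 in chondrocyte-like and -1.05 in SSPC-2-like cells. In SSPC-2-like cells both genes were at the level of the blood-like cells. *Col8a1* was at 0.73 in lining-like cells, and at -0.96 in cells like SSPC-1 and -0.70 in those like SSPC-2. *Col15a1* was at 1.18 in tendon-like and 0.66 in Pi16 fibroblast-like cells, and at -0.78 in lining-like cells. Many of these directions depended on the processing. Under at least 1 alternative setting, *Col4a1* reached 0.57 in blood-like, 0.52 in SSPC-2-like and 1.44 in chondrocyte-like cells, while in tendon-like cells it reached -0.095. *Col4a2* reached 0.32, 0.35 and 0.49 in the first 3 of these types, and *Col8a1* reached 0.59 in SSPC-2-like cells. No alternative value changed direction for *Col4a1*, *Col4a2* or *Col8a1* in lining-like cells, *Col8a1* in SSPC-1-like cells or *Col15a1* in the 3 types named.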

How the results depend on the processing

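Of the members, 2 met the 2-fold rule for a leading type as reported. It was 1 with mitochondrial UMIs under 10%, 0 at resolution 0.2, 0 with each cell named by its marker UMIs, and 4 with a 1.5-fold gap. The 25 of 71 pairs past 1.5-fold between the genotypes became 39 of 103 with cells named by marker UMIs and 16 of 54 with at least 100 UMIs. They became 48 of 98 with at least 1 UMI and 13 of 71 past 2-fold. Shares over all genes are given here for the main settings only. The counts under other settings thus have no background beside them and are not to be read against those shares. The 56 partner pairs stayed within 1.5 times that count under the other settings that gave a value. Of 251 values of the order between a member's leading types, 55 moved. For some members the log2 ratio of the first over the next type fell below 0 under at least 1 setting. In the Piezo1 fl/fl library it reached -0.067 for *Col15a1* over tendon-like cells and -0.072 for *Col4a2* over endothelial-like cells. There it also reached -0.62 for *Col4a5* over Gdf10 fibroblast-like cells. In the control it reached -0.69 for *Col4a4* over tendon-like and -1.32 for *Col4a3* over chondrocyte-like cells. Of 925 values of the genotype ratios, 206 moved and 18 changed direction, and the cause was not tested. Only pairs past 1.5-fold as reported are among the 18, so sign changes of smaller ratios are not. In SSPC-2-like cells *Col4a1*, *Col4a2* and *Col8a1* were at 0.52, 0.35 and 0.59 with 500 to 6000 genes and at 0.45, 0.31 and 0.52 with mitochondrial UMIs under 10%, and *Col4a1* was at 0.056 with cells named by marker UMIs. In blood-like cells *Col4a1* was at 0.010 with 500 to 6000 genes, 0.57 with doublets kept and 0.14 at resolution 0.8, and *Col4a2* at 0.32 with doublets kept. In Pi16 fibroblast-like cells *Col8a2* was at 0.62 with mitochondrial UMIs under 10%, 0.63 at resolution 0.8 and 0.76 with cells named by marker UMIs. In chondrocyte-like cells, with cells named by marker UMIs, *Col4a1* was at 1.44 and *Col4a2* at 0.49. In tendon-like cells *Col4a1* was at -0.095 at resolution 0.2 and *Col4a5* at -0.076 with both libraries clustered together. With a pseudocount of 10 in place of 1, 17 of the 24 genes with the most similar patterns were shared. Leaving out a library was not possible, and no paired analysis was possible because each genotype has 1 library. Settings in which a type was not named gave no value for it. Low counts limit *Col4a3*, *Col4a4* and *Col10a1* outside their leading types.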

Other observations

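Cells named in 1 library entered no comparison of the genotypes. The 32 perineurial-like cells of the control, named from the markers of the sheath around nerve bundles, had 522 CPM of *Col4a1* and 358 CPM of *Col4a2*, below the levels of endothelial-like cells of the same library. They had 692 CPM (571 to 831) of *Col8a2* from 114 UMIs, against 619 CPM (576 to 664) in control tendon-like cells. They had 552 CPM (445 to 678) of *Col18a1* from 91 UMIs, against 430.3 CPM (395 to 467) in control mural-like cells, so both pairs of intervals overlap. The unnamed Piezo1 fl/fl cluster of 326 cells led by *Cyp2f2* had 751 CPM of *Col4a1*, 485 CPM of *Col4a2*, 115 CPM of *Col4a5* and 415 CPM of *Col15a1*, with 13.6 CPM of *Col4a4* and 1 UMI of *Col4a3*.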
